A study of Mus musculus with 6 samples.

Results

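Adherens junctions and desmosomes are the contacts by which epithelial cells hold on to each other, and 10 of their genes were followed here: Cdh1, Ctnna1, Ctnnd1, Jup, Dsp, Dsg2, Dsc2, Pkp2, Pkp3 and Ppl. They were chosen by symbol as a functional group, and all 10 were found among the 23420 genes of the count tables. The libraries came from Meta4 organoids, a single mouse line of dysplastic epithelial organoids, from which dysplastic stem cells (DSCs) were isolated by flow cytometry as a TP and a DP subpopulation. TP-DSCs and DP-DSCs had 3 libraries each, and both groups share the organoid line; the labels give no genotype, passage or treatment for it. The labels do not define DP and TP; what is known of the study gives them as double and triple positive for surface antigens, with Prom1 and Alcam products on both and a variant form of Cd44 added in TP-DSCs. Expression is given as CPM, the reads of a gene per 1000000 gene-assigned reads of its library.

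In an adherens junction, E-cadherin molecules of neighbouring cells bind each other outside the membrane. Inside, p120-catenin holds the cadherin at the surface, while beta-catenin or plakoglobin binds its tail and links it through alpha-catenin to actin. In a desmosome, desmogleins and desmocollins take the place of E-cadherin, plakoglobin and plakophilins bind their tails, and desmoplakin ties the plaque to keratin filaments. Loss of E-cadherin is a known feature of diffuse gastric cancer and of epithelial to mesenchymal transition, in which Snail, Slug, ZEB and Twist proteins repress Cdh1.

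The libraries held 17015581 to 31068454 gene-assigned reads in TP-DSCs and 27027919 to 32671039 in DP-DSCs. Genes with at least 1 read numbered 10571 to 10982 in TP-DSCs and 12504 to 14434 in DP-DSCs, so the TP-DSC libraries registered fewer genes. The summed CPM of 8 epithelial markers was 7653 to 9063 in TP-DSCs and 8087 to 9637 in DP-DSCs, with all 8 detected in both groups. The 7 fibroblast markers summed to 0 to 2.90 CPM in TP-DSCs and 0.704 to 3.19 CPM in DP-DSCs, with Col1a2, Col3a1, Dcn, Lum and Thy1 at 0 in all 6 libraries. The 6 endothelial markers summed to 0 to 4.995 CPM in TP-DSCs and 1.56 to 3.07 CPM in DP-DSCs, and the 7 immune markers in the tables to 0 CPM in each TP-DSC library and 0 to 0.828 CPM in DP-DSCs. The 4 markers of cycling cells summed to 523 to 1018 CPM in TP-DSCs and 307 to 526 CPM in DP-DSCs, so the groups overlapped. Of these, the proliferation antigen Mki67 stood at 244, 369 and 305 CPM in TP-DSCs and at 129, 136 and 103 CPM in DP-DSCs (adjusted p = 0.121 in edgeR and 6.46e-06 in DESeq2). Top2a, Cdk1 and Ccnb1 had edgeR log2 fold changes of 0.76, 0.82 and 0.70. Their DESeq2 adjusted p was 0.593, 0.757 and 0.99955. The part of these genes in the results below was not tested. The library names carry the number 3840 (replicate 1 of each group) or 4140 (replicates 2 and 3 of each group), whose meaning the labels do not give. The labels call the samples independent but name no separate cultures, and p-values therefore cover the spread among these libraries alone, which could be technical.

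All 10 junction genes were well expressed in every library, and none passed the test between TP-DSCs and DP-DSCs. Together they took 0.312, 0.316 and 0.371% of gene-assigned reads in TP-DSCs replicates 1, 2 and 3, against 0.345, 0.435 and 0.397% in DP-DSCs. The gene closest to a call was Cdh1, with a log2 fold change of -0.54 ± 0.22 (SE, n = 3 each). Next came Pkp3 at -0.45 ± 0.22 and Jup at -0.37 ± 0.20. In a pool of sorted cells, a lower level of RNA per cell and fewer cells that carry it cannot be told apart.

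Cdh1, which encodes E-cadherin, was the most abundant of the 10 by read number, with rank 172 in TP-DSCs and rank 94 in DP-DSCs when all 23420 genes were ordered by mean CPM. It stood at 691, 811 and 739 CPM in TP-DSCs replicates 1, 2 and 3, and at 794, 1342 and 1114 CPM in DP-DSCs replicates 1, 2 and 3. The TP-DSC libraries lay close together, with a coefficient of variation of 8.10%, and the DP-DSC libraries were spread more widely, at 25.4%. On the CPM scale the groups overlapped, because DP-DSCs replicate 1 lay below TP-DSCs replicate 2. After TMM scaling, a correction for RNA composition by trimmed means, they did not: Cdh1 was at 745, 779 and 705 CPM in TP-DSCs and at 838, 1267 and 1140 CPM in DP-DSCs. In edgeR's quasi-likelihood test the Cdh1 difference had an unadjusted p of 0.0409 and a Benjamini-Hochberg adjusted p of 0.744 over 11925 genes. That unadjusted p depended on the processing, and was 0.0526 in edgeR with library size as the only scaling. Leaving out 1 library gave an edgeR unadjusted p of 0.0127 without DP-DSCs replicate 1. It was 0.0726 to 0.118 without any other library. The difference in mean log2 CPM was -0.17 in the pair of libraries numbered 3840, which has no replicate check, and -0.70 among those numbered 4140.

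Ctnna1 encodes alpha-catenin, the link from the cadherin complex to actin. Relative to its level it had the narrowest range of the 10 members over the 6 libraries, with the highest library 1.21 times the lowest, at 617, 656 and 676 CPM in TP-DSCs and 590, 691 and 715 CPM in DP-DSCs. The TP-DSC values lay inside the range of the DP-DSC values. Its log2 fold change was -0.05 ± 0.17 (SE, n = 3 each; edgeR adjusted p = 0.999).

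Ctnnd1 encodes p120-catenin, which keeps E-cadherin at the membrane. It varied widely inside each group, at 407, 378 and 762 CPM in TP-DSCs and 438, 613 and 751 CPM in DP-DSCs. The highest library of each group was its replicate 3, and the groups overlapped over nearly their whole range. Its coefficient of variation in TP-DSCs, 41.5%, was the highest of the 10 members in that group. The log2 fold change was -0.24 ± 0.32 (SE, n = 3 each; edgeR adjusted p = 0.999).

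Jup encodes plakoglobin, which serves both junction types and was counted here with the adherens junction genes. Jup stood at 284, 252 and 290 CPM in TP-DSCs and at 309, 458 and 301 CPM in DP-DSCs. Every TP-DSC library lay below every DP-DSC library, by a narrow margin between TP-DSCs replicate 3 and DP-DSCs replicate 3. The order held with TMM scaling, where the nearest values were 305.5 CPM in TP-DSCs replicate 1 and 308.2 CPM in DP-DSCs replicate 3. The log2 fold change of -0.37 ± 0.20 (SE, n = 3 each) had an edgeR adjusted p of 0.999 and an unadjusted p of 0.106. DP-DSCs replicate 2 was the high library of both Jup and Cdh1.

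**Figure D1:**
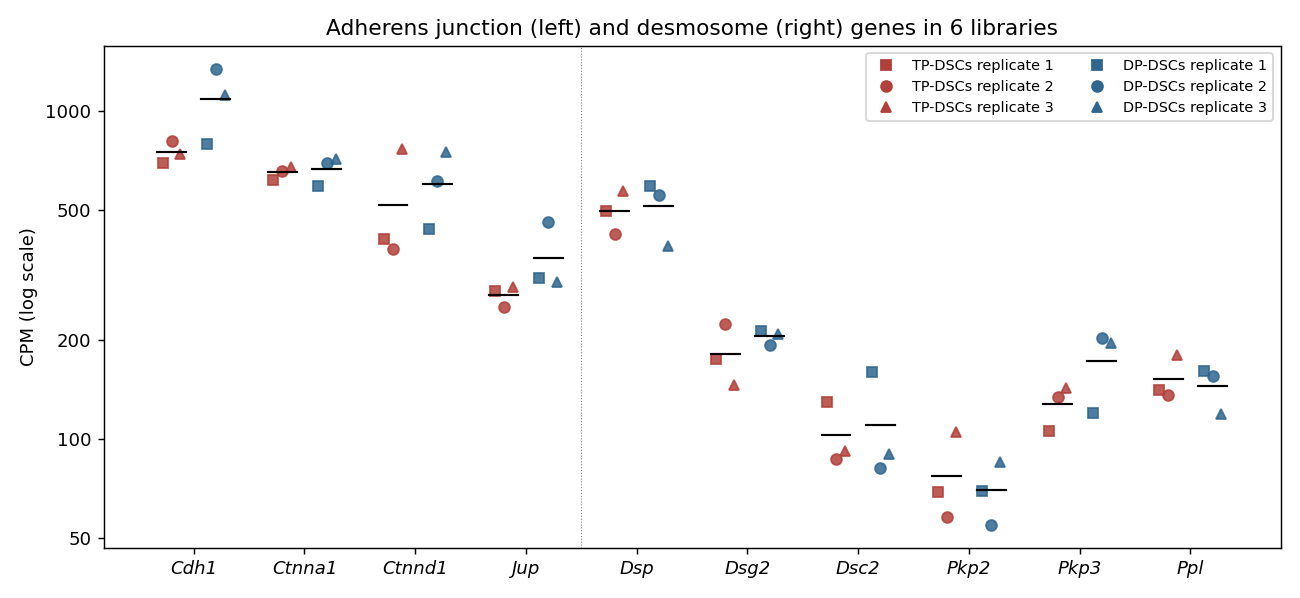
CPM on a log scale (y axis) of the 4 adherens junction genes and 6 desmosome genes (x axis) in each of the 3 TP-DSC and 3 DP-DSC libraries; points are libraries, their shape gives the replicate, and lines are group means. Cdh1 spans 691 to 811 CPM in TP-DSCs against 794 to 1342 CPM in DP-DSCs, and only for Jup do the groups not overlap.

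The desmosomal cadherins were represented by 1 gene of each kind. Dsg2, the desmoglein of simple epithelia, stood at 175, 224 and 146 CPM in TP-DSCs and at 213, 194 and 209 CPM in DP-DSCs. The DP-DSC libraries were tight, with a coefficient of variation of 4.88% against 21.7% in TP-DSCs. They lay within the TP-DSC range of 146 to 224 CPM. The log2 fold change was -0.20 ± 0.21 (SE, n = 3 each; edgeR adjusted p = 0.999).

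Dsc2, the desmocollin partner, stood at 130, 87.3 and 92.1 CPM in TP-DSCs and at 160, 81.6 and 90.1 CPM in DP-DSCs. In both groups replicate 1, the library numbered 3840, was the highest, and the other 4 libraries lay within 81.6 to 92.1 CPM. Between TP-DSCs and DP-DSCs the log2 fold change was -0.12 ± 0.35 (SE, n = 3 each; edgeR adjusted p = 0.999). With the library number in the model, Dsc2 differed between number 4140 and number 3840 by -0.86 ± 0.18 (log2, SE; 4 libraries against 2), with an edgeR unadjusted p of 0.00255 and an adjusted p of 0.245. Of all genes tested, 9.3% had an unadjusted p under 0.05 for the library number and 0% passed after adjustment; of the 10 members, Dsc2 had the smallest p.

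Dsp encodes desmoplakin, the plakin that anchors keratin filaments. It stood at 496, 422 and 571 CPM in TP-DSCs and 592, 555 and 388 CPM in DP-DSCs. The lowest value was that of DP-DSCs replicate 3, and the TP-DSC libraries fell inside the DP-DSC range. Ppl encodes periplakin, a smaller plakin. It stood at 141, 136 and 180 CPM in TP-DSCs and 161, 156 and 119 CPM in DP-DSCs. Ppl was highest in TP-DSCs replicate 3 and lowest in DP-DSCs replicate 3. The log2 fold changes were -0.06 ± 0.23 for Dsp and 0.05 ± 0.20 for Ppl (SE, n = 3 each; both with an edgeR adjusted p of 0.999).

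The plakophilins bind desmosomal cadherins and desmoplakin. Pkp2, the form found in heart and simple epithelia, was the least abundant member by read number, at 69.1, 57.8 and 105 CPM in TP-DSCs and 69.5, 54.9 and 85.4 CPM in DP-DSCs. In both groups replicate 3 was the highest and replicate 2 the lowest. Pkp3, found in simple and stratified epithelia, stood at 106, 134 and 143 CPM in TP-DSCs and 120, 204 and 196 CPM in DP-DSCs. The groups overlapped through DP-DSCs replicate 1. The log2 fold change was 0.12 ± 0.30 for Pkp2 and -0.45 ± 0.22 for Pkp3 (SE, n = 3 each; edgeR adjusted p = 0.999 and 0.985). For Pkp3 the unadjusted p was 0.0786, and 0.0381 with the library number as a block (adjusted p = 0.639), a fit in which 7.07% of tested genes and 2 members, Cdh1 and Pkp3, had an edgeR unadjusted p under 0.05.

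Over the 11925 genes tested, 0% passed an edgeR adjusted p of 0.05, and 0 of the 10 members did. At an unadjusted p under 0.05 there were 6.1% of all tested genes and 1 member, Cdh1. With library size as the only scaling there were 5.9% and 0 members. DESeq2 called 0.78% of the same genes, and 1.76% of all genes with a read, and 0 members either way; its adjusted p for Cdh1 was 0.280 and 0.212. In limma-voom 0% of genes passed, with an adjusted p of 0.620 for Cdh1. Of the members, 8 had a log2 fold change below 0 and 2 above, with a median of -0.16, against 51.8% below 0 and a median of -0.02 over all tested genes. The 8 epithelial markers were all below 0 too, with a median of -0.19, so this lean was not particular to the members. The distance between the medians of the members and of all genes rested in part on single libraries. It also changed with the tool, mainly through the median of all genes. Without TP-DSCs replicate 2 the members had 6 below 0 and a median of -0.039, the same as the -0.039 of all genes, and without DP-DSCs replicate 2 they had 9 below 0 and a median of -0.24, against -0.037. In limma-voom the medians were -0.151 for the members and -0.151 for all genes, and in edgeR without a filter on low counts -0.178 for the members and -0.160 for all genes. The members' median thus stayed near the -0.16 of the main fit, while that of all genes moved away from -0.02. The 4 adherens junction members, with Jup counted among them, were all below 0, with a median of -0.31. The 6 desmosome members had 4 below 0 and a median of -0.09. Jup, at -0.37, serves both junction types, so these medians depend in part on where it is placed. Among the 3041 tested genes within the members' range of mean abundance, 73.6 to 915 CPM, 50.7% were below 0, 4.08% had an unadjusted p under 0.05, and the 5th and 95th percentiles of the log2 fold change were -0.44 and 0.45. Their median log2 fold change in the main edgeR fit was -0.0045, against -0.16 for the members. Every TP-DSC library lay below every DP-DSC library in 1 member on the CPM scale, against 8.56% of tested genes and 4.47% of those of like abundance, and in 2 members, Cdh1 and Jup, with TMM scaling, against 8.88% of tested genes. For no member did all TP-DSC libraries lie above those of DP-DSCs, against 3.87% of tested genes on the CPM scale and 4.03% with TMM scaling.

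**Figure D2:**
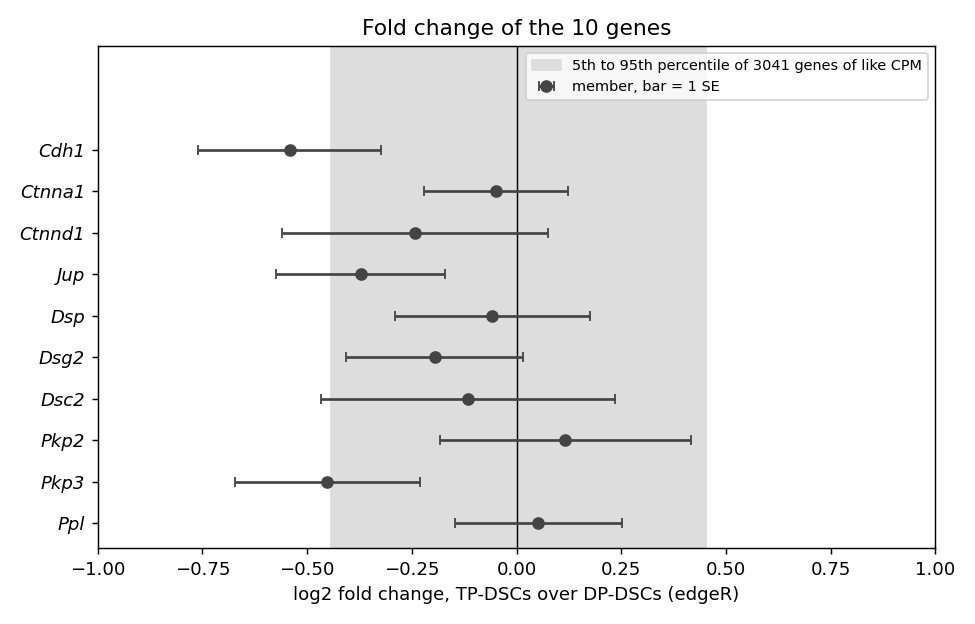
The log2 fold change of TP-DSCs over DP-DSCs in edgeR (x axis) for each of the 10 genes (y axis), with bars of 1 SE; the grey band spans the 5th to 95th percentile of 3041 genes of like abundance, -0.44 to 0.45. Cdh1 at -0.54 and Pkp3 at -0.45 lie beyond the lower edge, and the other 8 genes lie inside the band.

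The members did not vary as 1 block across the libraries. Measured as the deviation of log2 CPM from each gene's mean, 1 of 10 members was above its mean in each of TP-DSCs replicates 1 and 2 and 5 in replicate 3, against 4, 8 and 6 in DP-DSCs replicates 1, 2 and 3. Over the 45 pairs of members, Pearson's r of log2 CPM across the 6 libraries had a median of 0.051 and was positive in 25 pairs. The closest pairs were Cdh1 with Pkp3 (r = 0.926) and the plakins Dsp with Ppl (r = 0.917), the only pairs above 0.9. The most opposed pair was Ctnna1 with Dsc2 (r = -0.910). All genes of a library have its depth and library number in common, the 6 libraries differ in both, and no test was made of these values.

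**Figure D3:**
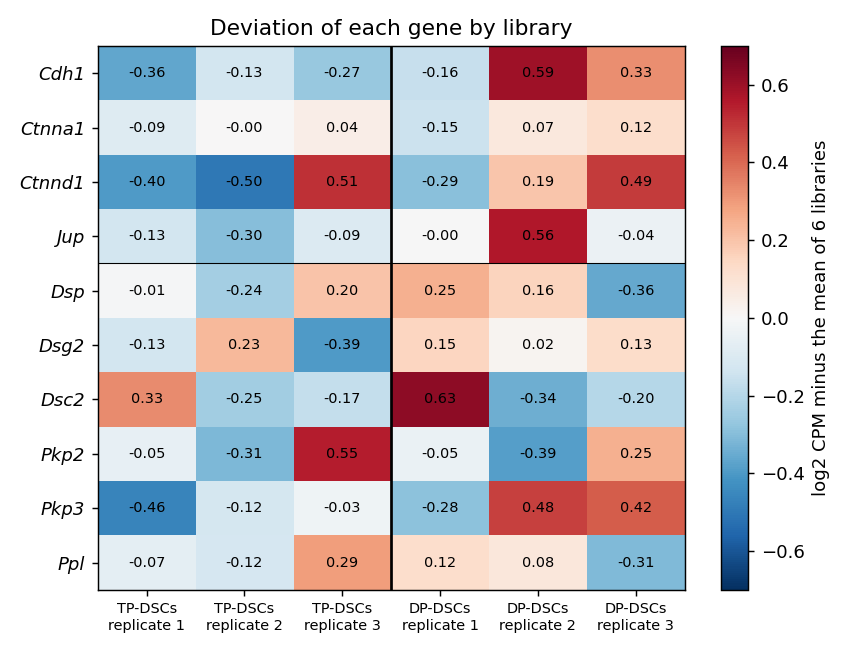
Deviation of log2 CPM from the mean of the 6 libraries (colour and printed value) for each gene (rows) in each library (columns, TP-DSCs left of the line). Cdh1 ranges from -0.36 in TP-DSCs replicate 1 to 0.59 in DP-DSCs replicate 2, and Dsc2 is highest in both libraries numbered 3840, at 0.33 in TP-DSCs and 0.63 in DP-DSCs.

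Ratios of partner genes within a library do not depend on how libraries are scaled, and 6 pairs were compared with exact two-sided permutation tests, whose smallest possible p is 0.1 with 3 libraries against 3. The ratio of Ctnna1 to Cdh1 reads, alpha-catenin relative to its cadherin, was 0.892, 0.808 and 0.915 in TP-DSCs and 0.743, 0.515 and 0.642 in DP-DSCs. All TP-DSC values exceeded all DP-DSC values. The mean log2 ratio was higher in TP-DSCs by 0.48, with -0.20 ± 0.09 in TP-DSCs and -0.68 ± 0.27 in DP-DSCs (SD, n = 3 each; exact permutation p = 0.1, 0.6 after adjustment over the 6 pairs). Within library number 3840 the difference was 0.26, and within 4140 it was 0.58.

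In the other 5 pairs the groups overlapped. Pkp2 over Pkp3 had a mean log2 ratio of -0.76 ± 0.40 in TP-DSCs and -1.29 ± 0.56 in DP-DSCs (SD, n = 3 each; exact permutation p = 0.3). Jup over Ctnnb1, plakoglobin relative to beta-catenin, had -2.38 ± 0.24 in TP-DSCs and -2.18 ± 0.28 in DP-DSCs (exact permutation p = 0.4). Ppl over Dsp spanned the narrowest log2 range of the 6 ratios over all 6 libraries, with -1.70 ± 0.10 in TP-DSCs and -1.81 ± 0.09 in DP-DSCs (exact permutation p = 0.2). These plakins thus kept close to 1 proportion in all 6 libraries, from 0.272 in DP-DSCs replicate 1 to 0.323 in TP-DSCs replicate 2. For Ctnnd1 over Cdh1 the exact permutation p was 0.6, and for Dsg2 over Dsc2 it was 1. Dsg2 over Dsc2 followed the library number in part, with ratios of 1.35 in TP-DSCs and 1.33 in DP-DSCs under number 3840, against 2.57 and 1.58 in TP-DSCs and 2.38 and 2.33 in DP-DSCs under number 4140.

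**Figure D4:**
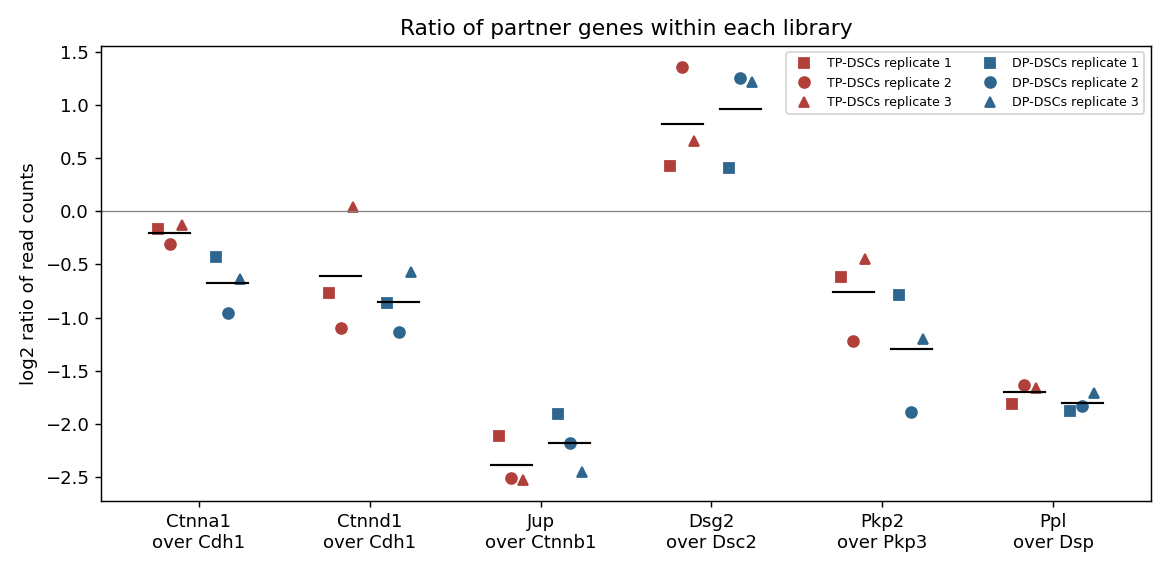
The log2 ratio of read counts (y axis) for 6 pairs of partner genes (x axis) in each library, TP-DSCs left of DP-DSCs, with lines at group means. Only for Ctnna1 over Cdh1 do the groups not overlap, and Ppl over Dsp stays between -1.88 and -1.63 in all 6 libraries.

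To compare levels between genes, CPM was divided by the length of the longest protein-coding transcript in kilobases. In TP-DSCs the order of mean CPM per kb was Ctnna1 (174 ± 8.11), Cdh1 (169 ± 13.7), Jup (85.9 ± 6.34), Ctnnd1 (81.1 ± 33.6), Dsp (51.8 ± 7.77), Pkp3 (43.8 ± 6.68), Dsg2 (31.5 ± 6.86), Pkp2 (26.5 ± 8.47), Ppl (24.5 ± 3.91) and Dsc2 (22.3 ± 5.08; SD, n = 3). Of the 9 steps in that order, only the one from Cdh1 to Jup separated all libraries of neighbouring genes. In DP-DSCs the order was Cdh1 (245 ± 62.1), Ctnna1 (178 ± 17.7), Jup (111 ± 27.5), Ctnnd1 (94.4 ± 24.7), Pkp3 (59.4 ± 15.8), Dsp (53.3 ± 11.3), Dsg2 (35.6 ± 1.74), Pkp2 (24.0 ± 5.22), Dsc2 (23.9 ± 9.31) and Ppl (23.4 ± 3.67; SD, n = 3). There the steps from Ctnna1 to Jup, from Dsp to Dsg2 and from Dsg2 to Pkp2 separated all libraries. The 4 genes counted as adherens junction genes thus filled the first 4 places in both groups, and the 6 counted as desmosome genes the others. Jup, among the first 4, serves both junction types.

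Within their families, single members carried most of the signal for the cadherins. Per kb, Dsg2 made up 96.1 to 98.9% of desmoglein signal over the 6 libraries, with Dsg3, a desmoglein of stratified epithelia, at 1.14 to 3.86% and Dsg1a, Dsg1b and Dsg4 at 0 reads. Dsc2 made up at least 99.9% of desmocollin signal, with 0 reads of Dsc1. Cdh1 made up 74.5 to 88.5% of the signal of 10 Cdh genes, and most of the rest was Cdh13, a cadherin without a cytoplasmic tail, at 9.96 to 25.1%. Ctnnb1, beta-catenin, was far more abundant than its relative Jup, which held 20.8, 16.6 and 16.4% of the pair in TP-DSCs and 23.2, 20.0 and 17.1% in DP-DSCs. Ctnnb1 itself stood at 1223, 1434 and 1670 CPM in TP-DSCs and 1156, 2068 and 1650 CPM in DP-DSCs, with overlapping groups.

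The plakophilins were the mixed family. Pkp3 held 33.5, 34.5 and 24.6% of plakophilin signal in TP-DSCs and 31.8, 43.2 and 32.3% in DP-DSCs, and Pkp2 held 21.8, 14.9 and 18.0% in TP-DSCs and 18.4, 11.7 and 14.0% in DP-DSCs. The rest was Pkp1, a plakophilin known mainly from stratified epithelia, and Pkp4, which is found at adherens junctions. Pkp4 held 27.4, 34.7 and 28.1% in TP-DSCs and 23.2, 21.3 and 16.3% in DP-DSCs, while its own level overlapped, at 137, 214 and 259 CPM in TP-DSCs and 139, 159 and 156 CPM in DP-DSCs. That level had a log2 fold change of 0.40 ± 0.22 (SE, n = 3 each; edgeR adjusted p = 0.999). Pkp1 held 17.3, 15.9 and 29.4% in TP-DSCs and 26.6, 23.8 and 37.4% in DP-DSCs. Its level stood at 87.6, 99.1 and 275 CPM in TP-DSCs and 161, 179 and 364 CPM in DP-DSCs. The groups overlapped, and replicate 3 was the highest of each. The log2 fold change of Pkp1 was -0.66 ± 0.50 (SE, n = 3 each, edgeR adjusted p = 0.999).

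**Figure D5:**
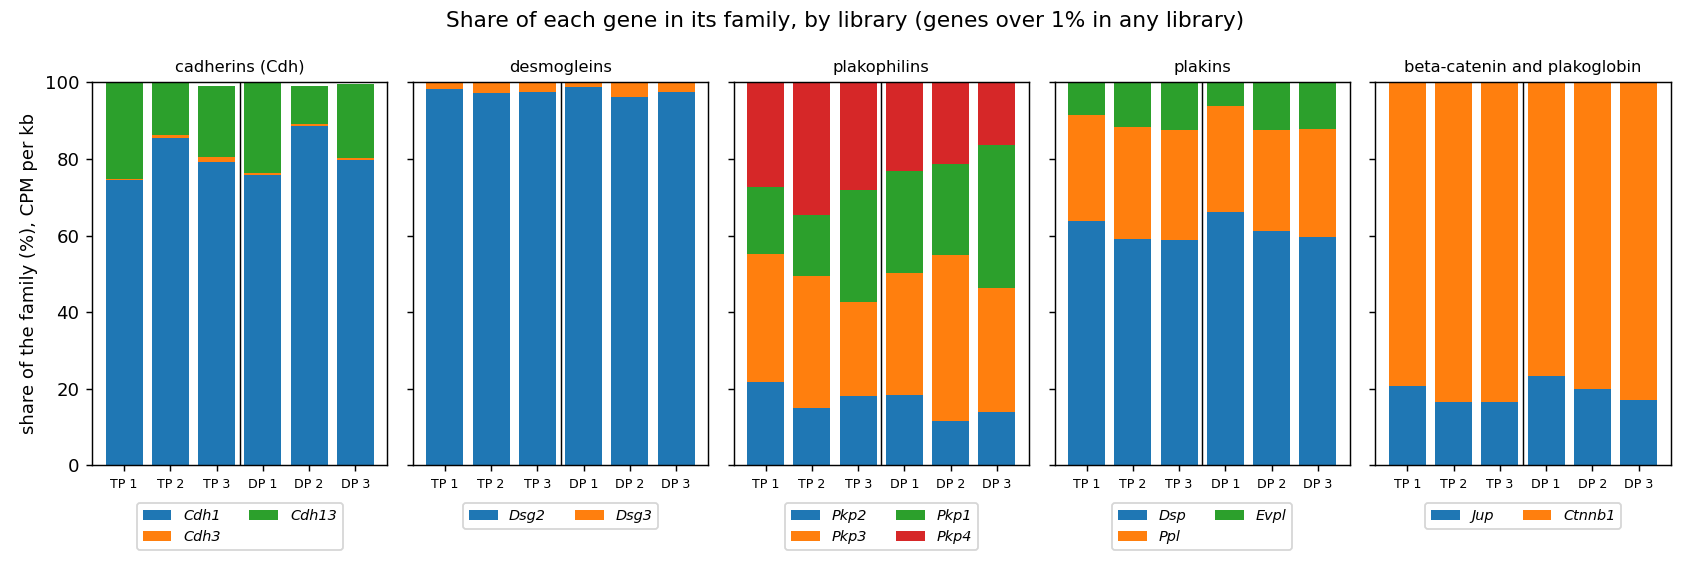
Share of each gene in its family (y axis, percent of summed CPM per kb) in each library (x axis, TP for TP-DSCs and DP for DP-DSCs with the replicate number), for 5 families; genes that reach over 1% in a library are drawn. Dsg2 fills 96.1 to 98.9% of desmogleins, while all 4 plakophilins hold a share of at least 11.7% in every library.

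The other genes of the pathway were taken from fixed lists, and 0 of their members passed in edgeR, DESeq2 or limma-voom over all genes tested. Of 17 tested catenins and adherens junction linkers, 10 were below 0 and 7 above, with a median log2 fold change of -0.13. Ctnnd2, delta-catenin, had the smallest p of that list, with 0 reads in the 3 TP-DSC libraries and 0.460, 4.07 and 1.85 CPM in DP-DSCs (edgeR unadjusted p = 0.00431, adjusted p = 0.140). Of 5 tested cadherins other than Cdh1, 4 were below 0, with a median of -0.32. The smallest p among them was that of Cdh17, a cadherin of intestinal epithelium, with 0 reads in TP-DSCs and 1.14, 0.979 and 1.89 CPM in DP-DSCs (edgeR unadjusted p = 0.00220, adjusted p = 0.121). Such zeros were common at low levels. Of 603 genes with a mean of 1 to 2 CPM in DP-DSCs, where Cdh17 lies, 44.4% had 0 reads throughout TP-DSCs. Ctnnd2, with a mean of 2.13 CPM in DP-DSCs, lay just above that range. Lima1, an actin-binding partner of alpha-catenin, averaged 189 ± 39.3 CPM in TP-DSCs and 258 ± 16.2 in DP-DSCs (SD, n = 3 each), with a log2 fold change of -0.45 (edgeR adjusted p = 0.936). Plekha7, which binds p120-catenin, averaged 89.5 ± 20.5 CPM in TP-DSCs and 64.4 ± 14.1 in DP-DSCs, a log2 fold change of 0.46 (edgeR adjusted p = 0.987). Of 5 tested nectins and relatives, adhesion molecules that work beside E-cadherin, 4 were below 0. Pvrl2 (nectin-2) stood at 107, 126 and 147 CPM in TP-DSCs and 180, 172 and 183 CPM in DP-DSCs. The groups did not overlap, and the log2 fold change was -0.52 ± 0.17 (SE, n = 3 each; edgeR unadjusted p = 0.0179, adjusted p = 0.438). Of 5 tested further desmosome genes, 3 were below 0 and 2 above, with a median of -0.13. Perp, a tetraspan protein of desmosomes, averaged 386 ± 62.2 CPM in TP-DSCs and 419 ± 60.2 in DP-DSCs. Of 6 tested intermediate filament genes, all were below 0, with a median of -0.21, against 51.8% below 0 over all tested genes. Krt8, Krt18 and Krt19, at -0.08, -0.02 and -0.11, are also among the 8 epithelial markers, so the 2 lists are not separate. Krt14 had the smallest p of the 6 filament genes, at 0, 4.70 and 8.75 CPM in TP-DSCs and 0.0307, 40.8 and 24.3 CPM in DP-DSCs, with overlapping groups (edgeR adjusted p = 0.999). It was nearly absent from the libraries numbered 3840, replicate 1 of each group. Among those numbered 4140, the TP-DSC values lay below the DP-DSC values. With the library number in the model, Krt14 differed between 4140 and 3840 by 9.88 ± 1.33 (log2, SE, edgeR unadjusted p = 0.000224, adjusted p = 0.137). Krt8 averaged 2918 ± 530 CPM in TP-DSCs and 3080 ± 518 in DP-DSCs, and Krt18 2490 ± 354 CPM in TP-DSCs and 2510.5 ± 233 in DP-DSCs (SD, n = 3 each; neither called by edgeR).

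Of the 9 listed repressors of E-cadherin, or genes that bind its promoter motif, 5 had at most 2 reads in any library and 3 stood above 3 CPM in every library. Snai1, Snai2, Zeb2 and Twist1 had 0 reads in all 6 libraries, which allows up to 0.0181 CPM for each (3 reads over all libraries, covering counting error only). That bound leaves out the spread between libraries, which could be far larger. Ctnnbip1, for example, had 0 reads in TP-DSCs replicate 2 but 10.1 and 20.3 CPM in replicates 1 and 3. Zeb1 had 0 reads in the 3 TP-DSC libraries and 0.675, 2.39 and 0.740 CPM in DP-DSCs (edgeR unadjusted p = 0.00296, adjusted p = 0.121). The mesenchymal filament gene Vim likewise had 0 reads in TP-DSCs and 0.153, 2.42 and 0.703 CPM in DP-DSCs, and Cdh2, N-cadherin, stood at 0, 0 and 6.24 CPM in TP-DSCs and 0, 14.8 and 3.55 CPM in DP-DSCs. Absence at that level was common: of 603 genes at 1 to 2 CPM in DP-DSCs, 44.4% had 0 reads throughout TP-DSCs. Tcf3, an E protein that can bind the same motif, averaged 92.5 ± 4.19 CPM in TP-DSCs and 124 ± 42.1 in DP-DSCs (SD, n = 3 each). Its relative Tcf4 averaged 51.4 ± 20.4 CPM in TP-DSCs and 48.1 ± 7.10 in DP-DSCs. Snai3, of the Snail family, stood at 15.2, 3.70 and 32.5 CPM in TP-DSCs and 9.57, 10.1 and 9.29 CPM in DP-DSCs, so that the TP-DSC libraries lay on both sides of the DP-DSC libraries. None of these 3 genes passed in edgeR. Of 17 tested genes for turnover or activation of E-cadherin, 14 were below 0, with a median log2 fold change of -0.30. Adam10, the protease that sheds E-cadherin, averaged 384 ± 51.4 CPM in TP-DSCs and 365 ± 26.0 in DP-DSCs. Foxa2 had the smallest p of that list, with a log2 fold change of -0.76 ± 0.37 (SE, n = 3 each; edgeR adjusted p = 0.962).

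Sequences before the transcription start, from RefSeq on GRCm38.p6, were at hand for 3 of the 10 members, and those of Jup and Dsp are shown because they hold the motifs searched. The motifs were CACCTG, the E-box read by Snail and ZEB proteins, AACCNGTT, the core read by grainyhead-like proteins, and GGGCGG, the box read by Sp-family proteins, each on both strands of the window from 250 bases before to 50 after the start. Capitals mark GGGCGG or its reverse complement, and each line runs 5′ to 3′ on the gene's strand over the 250 bases before the start. The Jup line covers chr11:100397791-100398040 on the minus strand, and the Dsp line chr13:38151044-38151293 on the plus strand. Both starts are those of RefSeq. Of transcripts in the GENCODE M21 annotation, 0 were matched to the Jup start and 1 to the Dsp start.
Jup: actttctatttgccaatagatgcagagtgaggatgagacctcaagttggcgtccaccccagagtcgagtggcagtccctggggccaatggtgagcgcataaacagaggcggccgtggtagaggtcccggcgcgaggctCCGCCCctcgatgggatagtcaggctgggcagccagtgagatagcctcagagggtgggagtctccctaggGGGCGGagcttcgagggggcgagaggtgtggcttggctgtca
Dsp: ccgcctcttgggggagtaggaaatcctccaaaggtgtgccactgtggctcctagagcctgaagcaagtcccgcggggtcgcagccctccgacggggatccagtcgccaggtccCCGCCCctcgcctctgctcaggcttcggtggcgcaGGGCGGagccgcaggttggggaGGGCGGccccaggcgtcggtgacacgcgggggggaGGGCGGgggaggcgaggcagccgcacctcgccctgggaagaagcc
GGGCGG occurred at 2 places in the Jup window and at 4 in the Dsp window, and at least once in 35.9% of 32544 promoter windows of the same length. CACCTG occurred once, in Dsp, starting 4 bases into the transcribed part, and in 20.3% of all windows. AACCNGTT, present in 2.09% of all windows, was in neither, and the Ctnnd1 windows held none of the 3 motifs.

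The genes whose level ran most like that of Cdh1 over the 6 libraries, among 9063 genes with a mean of at least 10 CPM, were Akr1b10 (Pearson's r = 0.997), Dcakd (r = 0.980) and Ing5 (r = 0.980). Akr1b10 averaged 11.7 CPM in TP-DSCs and 20.4 in DP-DSCs. With 6 libraries, 25 genes had an r above 0.95 with Cdh1. For Dsp the nearest were Arid2 (r = 0.980), Cmtm4 (r = 0.952) and Ate1 (r = 0.949), and Arid2 averaged 72.5 CPM in TP-DSCs and 72.8 in DP-DSCs. None of these 6 genes passed in edgeR.

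In the GENCODE M21 annotation of GRCm38, the assembly of mm10, Cdh1 lies on chromosome 8 from 106603351 to 106670246, with 16 exons in its longest coding transcript. Jup lies on chromosome 11 from 100368958 to 100397763, Dsp on chromosome 13 from 38151294 to 38198577, Ctnnd1 on chromosome 2 from 84600071 to 84650765 and Pkp3 on chromosome 7 from 141078218 to 141090510. Chromosome 16 holds Pkp2 from 16213318 to 16272712 and Ppl from 5086291 to 5132421. Chromosome 18 holds Ctnna1 from 35118859 to 35254779 and both desmosomal cadherins, Dsc2 from 20030633 to 20059554 and Dsg2 from 20558074 to 20604521. Of annotated genes that overlap a member, only Lrrtm2, on the opposite strand within Ctnna1, has a row in the tables, with 0 reads in all 6 libraries. Counts are per gene and do not separate transcripts.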

How the data were processed

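Polyadenylated RNA of 3 TP-DSC and 3 DP-DSC samples was sequenced with a stranded kit, per the labels' protocols. The authors deposited 1 raw read count per gene symbol and library. The submitters' processing notes name STAR 2.7.3a, Partek and DESeq2 3.5 with build mm10, without roles; the counter and its strand setting are not stated in those notes. The rows for reads in no gene (14.1 to 20.3% of reads) and ambiguous reads (1.09 to 1.86%) were left out. Replicate numbers follow the order of deposit. Replicates of a group differed by a chi-square of 112.2 to 306.1 per degree of freedom, so none was a library deposited again.

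The count model was edgeR 4.0.16 in R 4.3.3, with filterByExpr (minimum count 10, total 15), TMM factors and a quasi-likelihood test of group alone. P-values were adjusted by Benjamini-Hochberg over 11925 genes, with a threshold of 0.05. The standard error is the log2 fold change over the square root of F; differences within a library number use log2 CPM with a prior count of 2. DESeq2 1.42.0 and limma 3.58.1 (voom), other scalings and filters, the library number as a block, the libraries numbered 4140 alone and leaving out each library were alternatives. Permutation tests used scipy 1.17.1. All 10 members were tested and named; of each other list, up to 3 genes by smallest p and up to 2 by CPM, plus the repressors, the genes named for their zeros and Vim, Cdh2 and Ctnnb1. Other desmogleins and desmocollins are named only as shares of their families. Members and lists were chosen with earlier results of these data known.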

Additional observations from a re-analysis of the deposited data

How the results depend on the processing

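In all 16 alternatives 0 of the 10 members passed, and 0 genes passed in every edgeR and limma-voom fit; DESeq2 called 93 of 11925 genes, and 267 of 15176 when run without a filter on low counts, which was added after seeing the data. Over those alternatives the log2 fold change of Cdh1 ran from -0.73 to -0.42, of Pkp3 from -0.66 to -0.36 and of Jup from -0.54 to -0.21, and Ctnna1, Ctnnd1 and Dsg2 also stayed below 0. Single libraries moved those 3 widely: Ctnnd1 ran from -0.59 without TP-DSCs replicate 3 to -0.049 without TP-DSCs replicate 2 and -0.050 without DP-DSCs replicate 3, Dsg2 from -0.34 without TP-DSCs replicate 2 to -0.036 without TP-DSCs replicate 3, and Ctnna1 from -0.13 without DP-DSCs replicate 1 to -0.00073 without DP-DSCs replicate 3. Jup was at -0.21 without DP-DSCs replicate 2. Of 160 values of the members, 10 changed sign, each in a gene near 0, and the cause was not tested. With the libraries numbered 4140 alone, Dsp was at 0.023 and Dsc2 at 0.00021. Leaving out each library gave -0.23 to 0.073 for Dsp, -0.40 to 0.27 for Dsc2, -0.12 to 0.30 for Pkp2 and -0.082 to 0.15 for Ppl. The difference in log2 ratio ran from -0.080 (without TP-DSCs replicate 3) to 0.49 for Ctnnd1 over Cdh1 and from -0.42 to 0.052 for Dsg2 over Dsc2, which was 0.018 within library number 3840. No paired analysis was possible because replicates were numbered by deposit order and the labels pair no samples; the library number was used as a block instead, with a log2 fold change of -0.52 for Cdh1 and an edgeR adjusted p of 0.567.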
